A study of Mus musculus with 1479 samples.

Results

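Matrix metalloproteinases (MMPs) and their tissue inhibitors (TIMPs) were examined across single mesenchymal cells of the mouse urinary bladder. The group was chosen by gene name and comprised 10 genes, Timp1, Timp2, Timp3, Timp4, Mmp2, Mmp3, Mmp11, Mmp14, Mmp19 and Mmp23, of the 46517 gene rows in the count table, 29351 of which held at least 1 read. The rule used gene names and no measured value, although earlier results of these data were known when it was set, and all 10 had reads. The cells came from male mice of 10 to 20 weeks without treatment, of the 5 lines PdgfrbGFP (810 cells), Cspg4dsRED, C57BL6 (190 cells), PdgfraGFP and Acta2GFP. C57BL6 mice carry no reporter and their cells were sorted by antibody, whereas in the other lines a fluorescent protein is driven by the regulatory sequence of the gene in the line's name. Cells were sorted as single cells after enzymatic dissociation, negative for the endothelial protein CD31, and each of the 1479 cells was made into a Smart-seq2 library, which covers whole transcripts without molecular identifiers. Each cell carried a label with 1 of 11 cluster numbers, which the study described as vascular mural cells for cluster 10 and as fibroblasts for the others (1354 cells), with cluster 5 (76 cells) being the fibroblasts under the epithelium.

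MMPs are zinc-dependent proteases that cut collagens, proteoglycans, growth factor carriers and other proteins outside the cell. Most are made as inactive precursors, and TIMPs block the active enzymes by binding in the catalytic cleft. TIMP2 has an additional role, since together with the membrane-bound MMP14 it forms the complex on which the precursor of MMP2 is activated, and TIMP3 is unusual in binding to the matrix and in also inhibiting proteases of the ADAM and ADAMTS families. Fibroblasts are a main source of MMP2, MMP14 and TIMPs in connective tissue, including the lamina propria of the bladder wall.

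Reads per cell ranged from 50276 to 1446059, spike-ins included, with a median of 214893 overall and 130406 in cluster 10. A level is the reads of a gene per 500000 endogenous reads. It was averaged first over cells, for each line with at least 3 of them, and then over lines, and its error is the SD between lines. The lines were the unit because the labels name no animal, and the labels used here tie no cell to an animal. The line was a term of the fit, so p-values measure how evenly a class difference repeated over lines. By the study's methods each line was gated on its own reporter or antibody, which cannot be told apart from the line, and 2 of the 6 plates held cells of 2 lines. The clusters had been made from the same expression values, and the tests therefore state only how far a difference repeated over lines. As a check on the cluster names, the summed level of 6 mural markers was 10091 in cluster 10 and 75.4 in the fibroblast clusters other than 5, and that of 6 fibroblast markers was 855 and 12388. The sub-epithelial markers Tnc, Bmp5 and Bmp7 summed to 1162 in cluster 5 and to 7.70 in the other fibroblast clusters, and all 6 mural genes had reads in cluster 5, with a sum of 614. Urothelial, immune and glial lists summed to between 6.99 and 7.70 in cluster 10, and the endothelial list to 34.9.

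Of the 10 genes, 8 had a promoter entry in RefSeq (GRCm38.p6), taken as 250 bases before to 50 bases after the start of transcription. Timp3 is shown because it varied most between clusters, and Mmp3 and Timp4 because each was read in few cells. CG dinucleotides are in capitals. Over 27025 mouse promoters of this length the median number of CG dinucleotides was 7 and the median GC content 52.7%.
Timp3, chr10:86300162-86300461, plus strand: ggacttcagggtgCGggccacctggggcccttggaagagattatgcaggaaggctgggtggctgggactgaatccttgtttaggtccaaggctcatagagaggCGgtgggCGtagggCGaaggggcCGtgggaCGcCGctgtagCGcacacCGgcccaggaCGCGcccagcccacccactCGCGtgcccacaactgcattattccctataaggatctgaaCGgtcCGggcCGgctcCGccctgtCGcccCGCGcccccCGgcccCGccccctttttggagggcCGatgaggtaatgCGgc
Mmp3, chr9:7445572-7445871, plus strand: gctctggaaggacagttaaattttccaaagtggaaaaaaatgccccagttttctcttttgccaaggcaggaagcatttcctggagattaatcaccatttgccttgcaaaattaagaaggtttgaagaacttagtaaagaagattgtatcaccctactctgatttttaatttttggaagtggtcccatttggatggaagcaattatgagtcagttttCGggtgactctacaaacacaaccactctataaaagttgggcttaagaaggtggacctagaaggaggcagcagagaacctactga
Timp4, chr6:115252156-115252455, minus strand: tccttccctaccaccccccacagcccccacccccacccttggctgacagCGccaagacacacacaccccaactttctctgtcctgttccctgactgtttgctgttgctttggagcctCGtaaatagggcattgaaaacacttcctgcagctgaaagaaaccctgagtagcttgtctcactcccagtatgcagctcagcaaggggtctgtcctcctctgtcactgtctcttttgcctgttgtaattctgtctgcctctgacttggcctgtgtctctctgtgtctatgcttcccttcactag

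The windows of Timp3 and Timp2 held 24 and 25 CG dinucleotides, and those of Mmp11, Mmp14 and Timp1 held 19, 10 and 8. Mmp23 had 2 start sites with 19 and 23. Timp4 and Mmp3, whose windows are the poorest in CG of the set, held 2 and 1. The AP-1 element TGANTCA, which reads alike on both strands, was found in the Mmp3 window alone among the 8 genes and in 7.91% of all promoters. These are matches of letters, and binding was not measured. Mmp2 and Mmp19 were not matched.

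**Figure D1:**
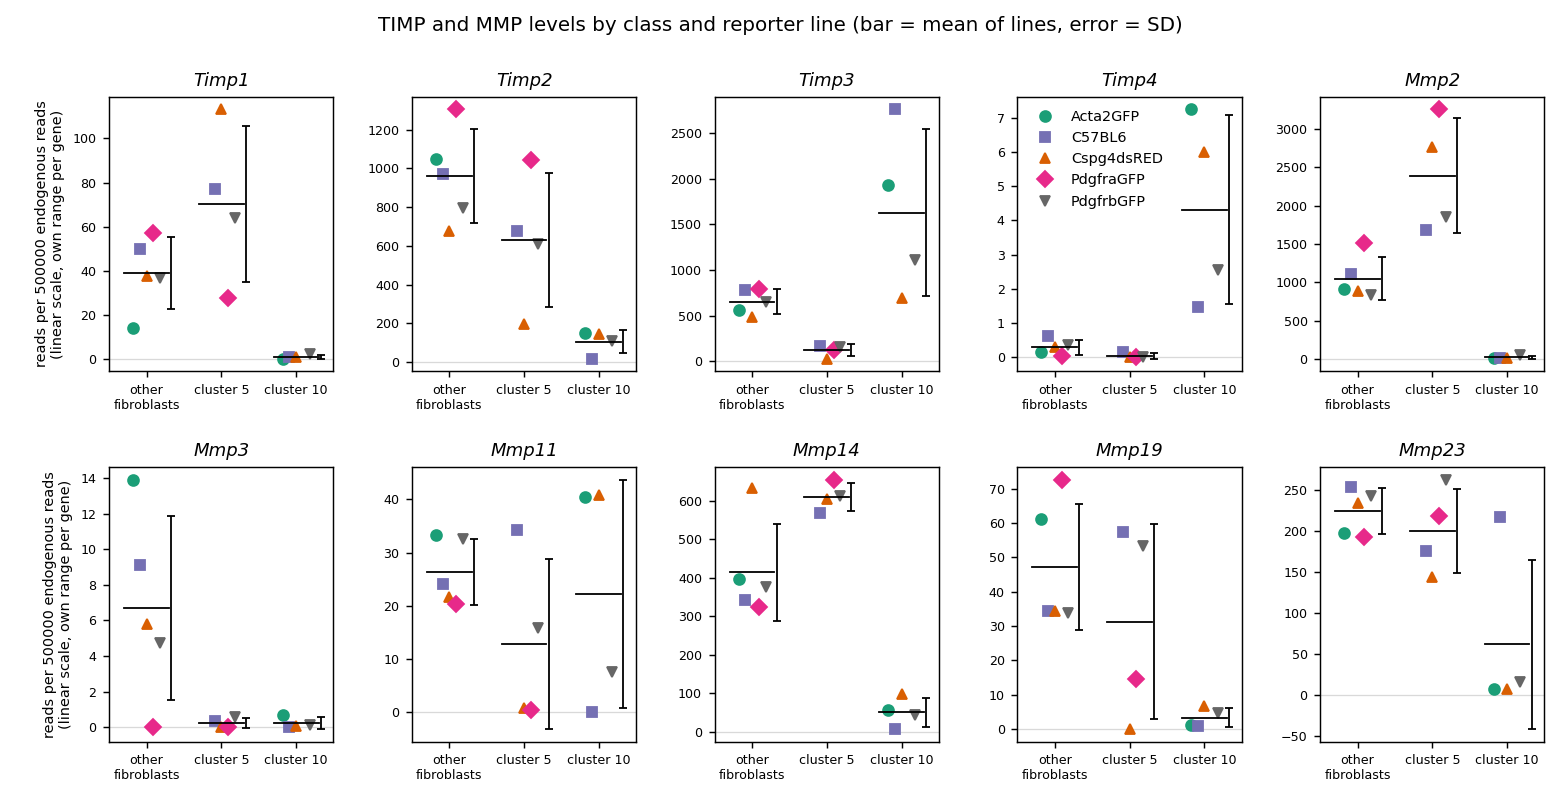
Level of each gene (reads per 500000 endogenous reads, linear axis with its own range for each gene) in the fibroblast clusters other than 5, in cluster 5 and in cluster 10. Points are reporter lines, horizontal bars the means of lines and error bars the SD between lines. Mmp2, Timp1, Timp2 and Mmp14 lie lowest in cluster 10 in every line, while Timp3 in cluster 10 lies between 698 and 2759.

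The first comparison asked how the proteases and inhibitors differ between mural cells and fibroblasts. The proteases Mmp2, Mmp14 and Mmp23 and the inhibitors Timp1 and Timp2 were lower in cluster 10 than in the fibroblast clusters, by log2 fold changes between -3.31 and -5.84, and Timp3 was the abundant exception, with a level in cluster 10 that was 147.8 to 374.2% of the fibroblast level in each of the 4 lines. The edgeR quasi-likelihood test on counts summed per line, where a call needed a log2 fold change of 2 or more in size and an adjusted p (Benjamini-Hochberg) below 0.05, called 5 of the 10 genes lower, against 4.02% of the 16092 genes tested. No gene of the group was called higher, against 2.17% of all genes, although Timp4 had an unadjusted p of 0.0336 and was called higher by DESeq2. The median log2 fold change of the 10 genes was -3.55, and that of all genes tested was -0.93, so that a fold of 0 stands above the median gene in this comparison.

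Timp1, a secreted inhibitor that is induced by many growth factors and cytokines, had fibroblast levels of 13.9 for Acta2GFP, 52.2 for C57BL6, 38.98 for Cspg4dsRED, 52.5 for PdgfraGFP and 38 for PdgfrbGFP. In cluster 10 it was at 0, 0.873, 0.573 and 1.92 in Acta2GFP, C57BL6, Cspg4dsRED and PdgfrbGFP, so the classes did not overlap. Cluster 10 was lower, by a log2 fold change of -5.80 (SE 1.40, n = 4 lines, edgeR adjusted p = 0.0157). The call was lost without Acta2GFP, Cspg4dsRED or PdgfrbGFP, with edgeR adjusted p between 0.0573 and 0.119. Cluster 10 as a whole held 56 Timp1 reads in 24 cells.

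Timp2 was the inhibitor with the highest level per kb of exon in fibroblasts, at 241.9 ± 59.6 reads per 500000 per kb (SD, n = 5 lines), against 76.04 ± 12.9 for Timp3, 44.1 ± 17.7 for Timp1 and 0.0486 ± 0.0347 for Timp4. Its level, not divided by length, in fibroblasts was 1047 for Acta2GFP, 946 for C57BL6, 668 for Cspg4dsRED, 1266 for PdgfraGFP and 784 for PdgfrbGFP. In cluster 10 it was 152.3, 17.9, 142.9 and 110.1 in the 4 lines in the order given for Timp1. Each line of cluster 10 was below every line of the fibroblasts, and the fitted log2 fold change was -3.31 with an SE of 0.52 (edgeR adjusted p = 0.000328).

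Timp3 had the opposite order. Its level in cluster 10 was 1932 in Acta2GFP, 2759 in C57BL6 (3 cells), 698 in Cspg4dsRED and 1111 in PdgfrbGFP, and in the fibroblast clusters of the same lines it was 563, 738, 473 and 630. Within each line cluster 10 was higher, but its Cspg4dsRED value lay below the fibroblast level of 738 in C57BL6. On the log2 scale the fold was 1.25 (SE 0.27, edgeR adjusted p = 0.00655), which passed the p threshold but not the fold of the call, and was 2.19 relative to the median gene. Spike-ins took a median of 1.71% of the reads of a cell in cluster 10 and of 0.961 to 1.92% in the single fibroblast clusters. Averaged over lines, the cluster 10 level of Timp3 was 2.71 times that of the fibroblasts of the same lines. Averaged over all cells without regard to line it was 1.61 times, and with all cells pooled and counted per spike-in read it was 1.13 times. In the fit scaled to the spike-ins the log2 fold change was 0.53 (adjusted p = 0.306). Without C57BL6 it was 1.04 (adjusted p = 0.0858).

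Timp4, an inhibitor best known from the heart, had 441 reads in 78 cells. Cluster 10 held 48.8% of them in 6 cells, and 1 of these cells held 33.8%. The level was 7.25, 1.46, 6.00 and 2.54 in cluster 10 and 0.161, 0.581, 0.313 and 0.337 in the fibroblasts of the same lines, and the log2 fold change of 3.68 had an SE of 1.61 (edgeR adjusted p = 0.178). At equal depth, 2.4% of the cells of cluster 10 (exact 95% interval 0.498 to 6.85%) and 2.15% of fibroblasts (1.45 to 3.08%) had a read, so the higher mean came from few cells with many reads. Timp4 lies within Syn2 on the opposite strand and shares 90 exon bases with it, and there were 1443 Syn2 reads for each 100 Timp4 reads in fibroblasts and 30.7 in cluster 10.

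Mmp2, gelatinase A, which cuts denatured collagen and basement membrane collagen, showed the largest called fold of the group. Its fibroblast level was 909 for Acta2GFP, 1153 for C57BL6, 931 for Cspg4dsRED, 1770 for PdgfraGFP and 878 for PdgfrbGFP, and its cluster 10 level was 11.0, 17.7, 10.4 and 47.3 in Acta2GFP, C57BL6, Cspg4dsRED and PdgfrbGFP. The highest line of cluster 10 was below the lowest of the fibroblasts, and the log2 fold change was -5.84 (SE 0.52, edgeR adjusted p = 3.92e-07). Per kb of exon Mmp2 was at 334.7 ± 111.1 in fibroblasts (n = 5 lines) and at 6.41 ± 5.17 in cluster 10 (n = 4 lines).

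Mmp14, the membrane-bound protease that cuts the Mmp2 precursor, was at 397, 360, 634, 374 and 387 in the fibroblasts of Acta2GFP, C57BL6, Cspg4dsRED, PdgfraGFP and PdgfrbGFP. Its cluster 10 level was 55.2, 6.90, 97.3 and 42.9, again without overlap, and the log2 fold change was -3.33 (SE 0.59, edgeR adjusted p = 0.00118). Mmp23, a further membrane-anchored protease, was at 196.9, 247.8, 232.6, 196.5 and 243.3 in fibroblasts and at 7.16, 216.7, 6.55 and 15.5 in cluster 10. The value of 216.7 came from the 3 C57BL6 cells, and it exceeded the Acta2GFP and PdgfraGFP fibroblast levels. For Mmp23 the fitted log2 fold change was -3.76 (SE 0.86, edgeR adjusted p = 0.0100), and the call was lost when the median gene was set to 0 (adjusted p = 0.0592).

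The remaining 3 proteases did not pass. Mmp19, a secreted enzyme with a broad choice of matrix substrates, was at 61.2, 36.3, 33.6, 63.97 and 34.7 in the fibroblasts and at 1.15, 0.873, 6.71 and 4.65 in cluster 10, and its log2 fold change was -4.14 (SE 1.25, edgeR adjusted p = 0.0515). The classes did not overlap for Mmp19, which was called lower under 10 of the 14 alternative settings, among which leaving out C57BL6 and asking for at least 10 cells per line were the same fit. Mmp3, stromelysin-1, was at or below 0.707 in all lines of cluster 10 and at 0 to 13.9 in fibroblasts, with a log2 fold change of -5.42 (SE 1.64, adjusted p = 0.0521). Mmp11, stromelysin-3, which is activated inside the cell by furin, was at 40.5, 0, 40.8 and 7.41 in cluster 10 and at 33.2, 24.8, 21.1, 17.3 and 31.7 in fibroblasts, with a log2 fold change of -1.08 (SE 1.36, adjusted p = 0.739). Lines of cluster 10 stood on both sides of the fibroblasts for Mmp11.

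**Figure D2:**
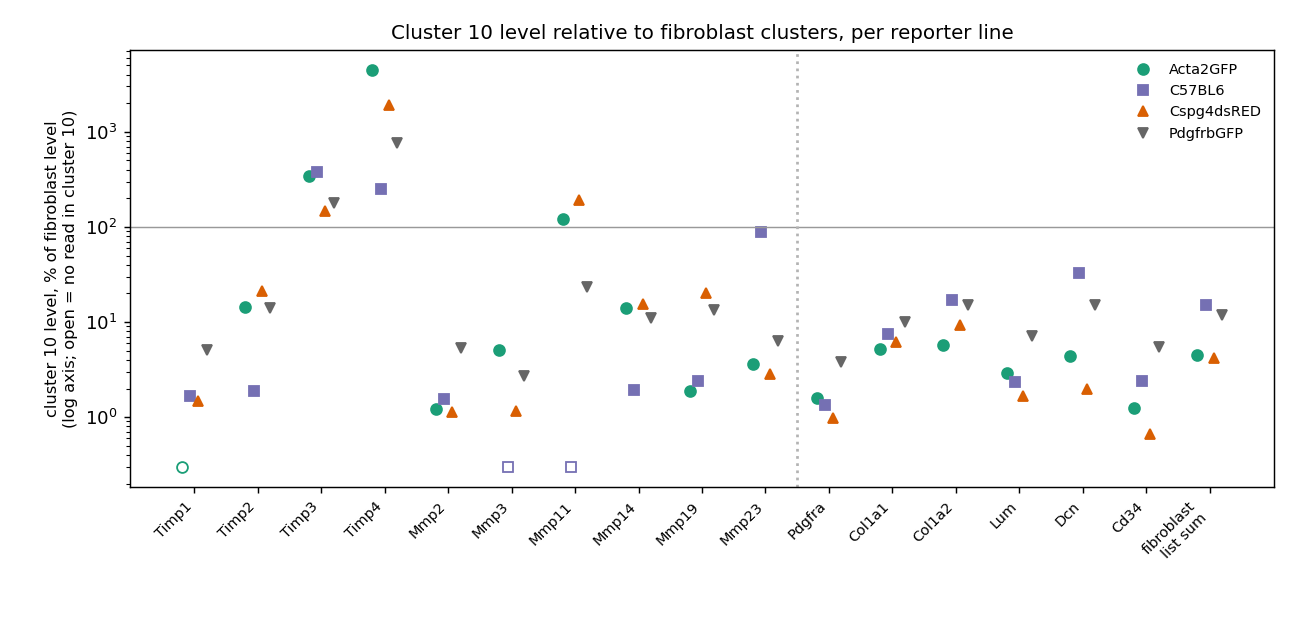
Level in cluster 10 as a percentage of the level in the fibroblast clusters of the same line (log axis; the horizontal line is 100%), for the 10 genes and for 6 fibroblast markers with their sum. Open symbols mark lines without a read in cluster 10. Mmp2 lies between 1.12 and 5.38%, within the range of Pdgfra, Lum and Cd34, and Timp3 lies above 100% in all 4 lines.

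Fibroblast transcripts were themselves present at a low level in the cells of cluster 10. As a percentage of the fibroblast level in the same line, cluster 10 held on average 1.93% for Pdgfra, 2.45% for Cd34, 3.52% for Lum, 7.17% for Col1a1 and 13.5% for Dcn, and 8.93% for the sum of the 6 fibroblast markers (range of lines 4.17 to 15.3%). The same percentage was 2.31% for Mmp2, 2.05% for Timp1, 2.23% for Mmp3, 9.42% for Mmp19, 10.6% for Mmp14 and 12.96% for Timp2, and 25.1% for Mmp23. The 3 C57BL6 cells weighed on these means, at 32.7% for Dcn and 87.4% for Mmp23. Without that line Timp2 was at 16.7%, Mmp14 at 13.4% and Mmp19 at 11.8%, above the 6 single markers, of which Col1a2 was highest at 10.1%, while Mmp23 at 4.28%, Mmp3 at 2.98%, Mmp2 at 2.57% and Timp1 at 2.17% lay among the markers. Within cluster 10, Mmp2 was correlated across cells with Lum (Pearson r 0.62 to 0.68) and with Dcn (0.57 to 0.87) in Cspg4dsRED (65 cells) and PdgfrbGFP (45 cells), the lines with enough cells, and Timp3 with Dcn was at -0.28 to -0.062. With Lum, Timp2 was at 0.016 to 0.45 and Mmp14 at 0.017 to 0.53, and Mmp23, in PdgfrbGFP alone, was at 0.40. Mmp2 was also correlated with the number of genes detected per cell (0.25 to 0.84). These r are descriptions of cells that share plate and depth. How far free RNA or fibroblast RNA contributes to the reads of the 5 lower genes in cluster 10 was not tested. The summed level of 10 dissociation response genes was 11666 in cluster 10 and 5225 in the fibroblast clusters other than 5, and its part in these differences was not tested either.

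**Figure D3:**
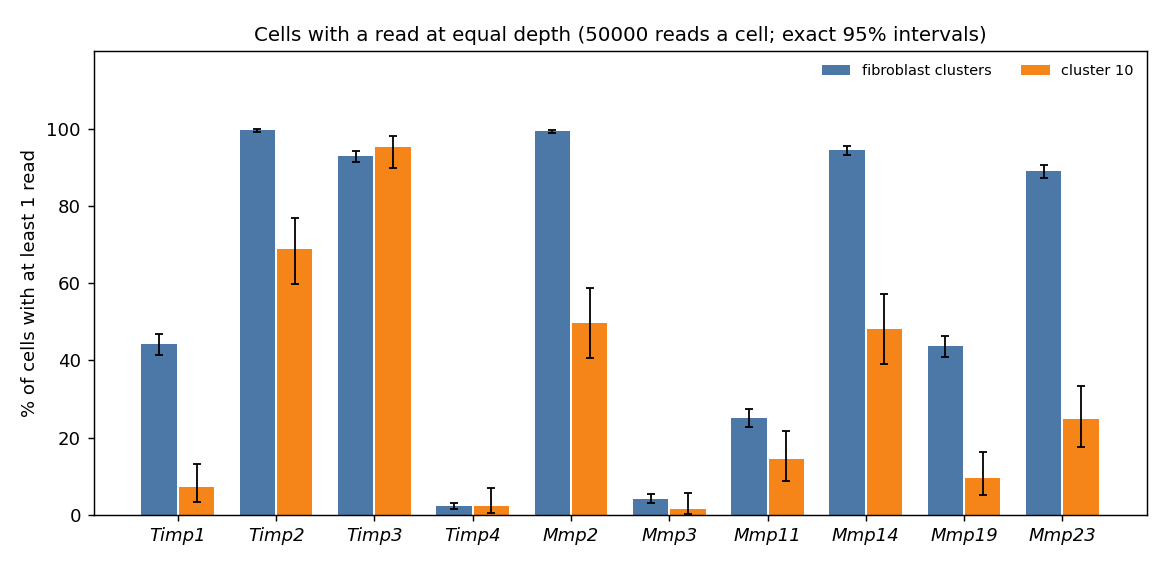
Share of cells with at least 1 read of each gene after every cell was thinned to 50000 endogenous reads, in 1348 fibroblasts and in all cells of cluster 10. Error bars are exact 95% intervals. Timp3 was read in 92.95% of fibroblasts and 95.2% of the cells of cluster 10, and the bars of Mmp2 stand at 99.5 and 49.6%.

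Shares of cells were also compared at equal depth. With each cell thinned to 50000 endogenous reads, Timp3 was read in 95.2% of the cells of cluster 10 (exact 95% interval 89.8 to 98.2%) and in 92.95% of fibroblasts (91.5 to 94.3%), so the intervals overlapped and nearly all cells of both classes had a read. Mmp2 was read in 49.6% (40.5 to 58.7%) and 99.5% (98.9 to 99.8%), and the fibroblast marker Lum, as a gene that mural cells should lack, in 66.4 and 98.1%. The share of cluster 10 cells with Mmp2 was thus below that with Lum, and at 10 or more reads it was 6.4%, against 95.3% of fibroblasts. Timp2 was read in 68.8 and 99.6%, Mmp14 in 48 and 94.4%, Mmp23 in 24.8 and 89.1%, Mmp19 in 9.6 and 43.6%, Mmp11 in 14.4 and 25%, Mmp3 in 1.6 and 4.15%, and Timp1 in 7.2 and 44.1%. Dcn was read in 97.6% of the cells of cluster 10. Intervals cover counting error only.

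Reads of Mmp14, Timp2 and Mmp2, the partners of the MMP2 activation complex, were found together in 1265 of 1348 fibroblasts (93.8%) and in 32 cells of cluster 10 (25.6%). Reads of Mmp14 and Mmp2 without Timp2 were found in 4 fibroblasts (0.297%) and in 6 cells of cluster 10 (4.8%). As nearly all fibroblasts had reads of Mmp2 and of Timp2, their joint shares follow closely from the shares of the single genes. The joint shares are no evidence that the genes go together in a cell. By the same cut of 1 read, Lum and Dcn were read in most cells of cluster 10. At least 1 TIMP was read in 99.9% of fibroblasts and in 97.6% of cluster 10. At least 1 MMP was read in 99.9% of fibroblasts and in 72% of cluster 10. The median number of the 10 genes read per cell was 6 in fibroblasts and 3 in cluster 10.

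The second comparison set cluster 5, the sub-epithelial fibroblasts, against the 9 other fibroblast clusters. Timp3 was lower and Mmp2 higher in cluster 5, and no other gene of the group passed an adjusted p of 0.05. Of the 9 genes tested, edgeR called Timp3 lower, against 0.465% of the 16145 genes tested. Timp4 did not pass the filter on low counts.

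Timp3 in cluster 5 was at 169.2 for C57BL6, 30.98 for Cspg4dsRED (3 cells), 125.6 for PdgfraGFP and 162.1 for PdgfrbGFP. The other fibroblasts of these lines were at 787, 482, 793 and 653, and those of Acta2GFP at 563, so every line of cluster 5 was below every line of the others. Timp3 was lower, by a log2 fold change of -2.89 (SE 0.42, n = 4 lines, edgeR adjusted p = 0.00622), and Timp3 was called under every alternative that was run for this comparison. No cell of cluster 5 had 100 or more Timp3 reads after thinning to 50000, whereas 23.3% of the other fibroblasts did.

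Mmp2 in cluster 5 was at 1680, 2767, 3259 and 1849 in C57BL6, Cspg4dsRED, PdgfraGFP and PdgfrbGFP, and at 1107, 891, 1507 and 830 in the other fibroblasts of these lines. Each line of cluster 5 was above all lines of the others. Its log2 fold change was 1.01 (SE 0.12, edgeR adjusted p = 0.00123), short of the fold of 2 on the log2 scale that a call required, with the median of all genes at -0.77. Mmp14 was at 569, 605, 656 and 612 in cluster 5 and at 341.5, 635, 324.9 and 376.4 in the others, with a log2 fold change of 0.49 (SE 0.29, adjusted p = 0.570). In Cspg4dsRED, with 3 cells of cluster 5, the order of Mmp14 was the reverse of that in the other 3 lines.

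The further genes gave no call in cluster 5. Timp2 was at 195.7 to 1041 in cluster 5 and at 679 to 1305 in the other fibroblasts, where the log2 fold change was -0.79 (SE 0.30, edgeR adjusted p = 0.259). Log2 fold changes were 0.21 for Timp1 (adjusted p = 0.94), -0.21 for Mmp23 (0.892), -1.05 for Mmp19 (0.837), -2.61 for Mmp11 (0.570) and -4.20 for Mmp3 (0.326), and the value of Mmp23 was 0.56 with the median gene set to 0. The sum of the 6 mural markers was 614 in cluster 5 and that of the dissociation response genes 1629, against 75.4 and 5225 in the other fibroblasts. The fibroblast markers summed to 17370 against 12388, the urothelial list to 23.3 against 6.95 and the immune list to 16.7 against 4.37. The part of any of these in the values of Timp3 and Mmp2 was not tested.

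**Figure D4:**
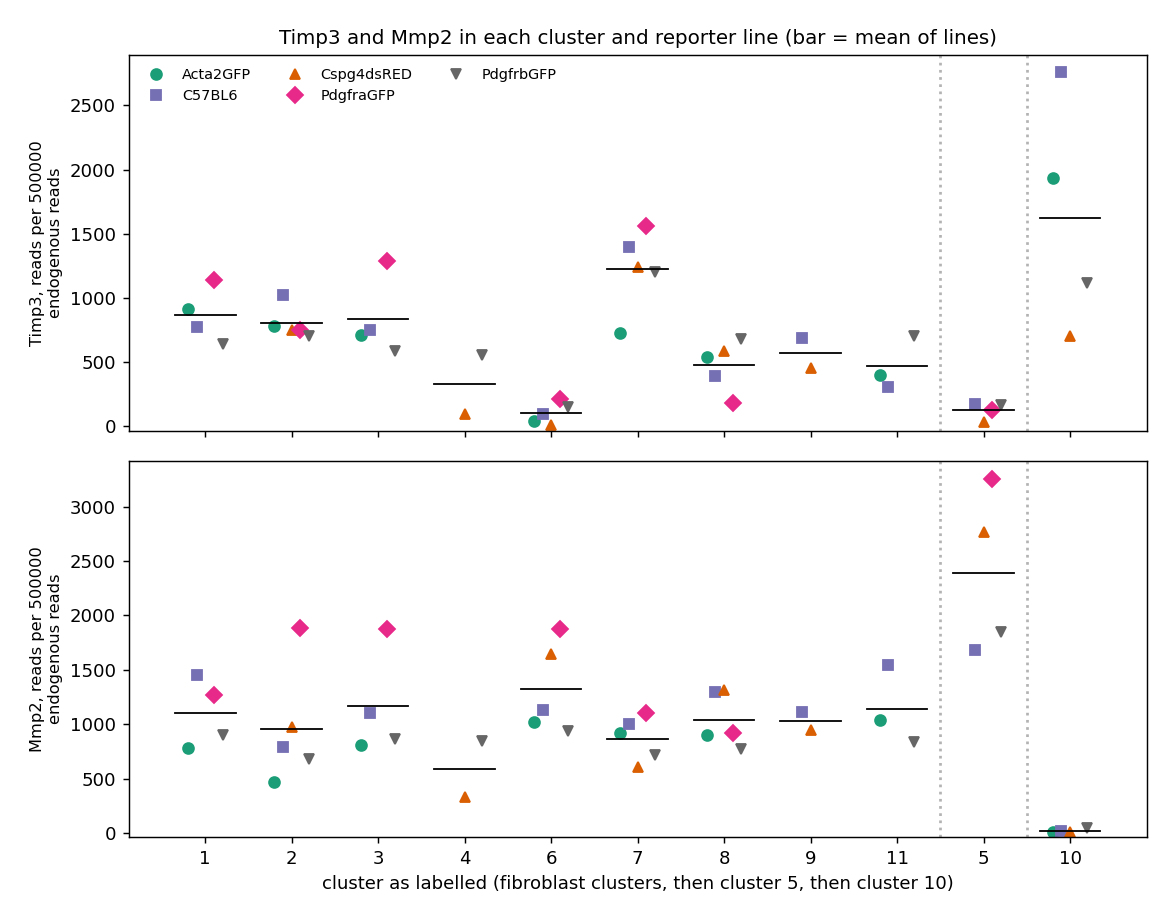
Timp3 and Mmp2 (reads per 500000 endogenous reads, linear axes) in the 11 clusters, with points for reporter lines and bars for the means of lines. Clusters 5 and 6 lie at the bottom for Timp3, at means of 121.99 and 98.01, and cluster 7 at 1225, while the highest Mmp2 mean, 2389, is that of cluster 5.

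The third comparison took each of the 9 remaining fibroblast clusters against the other 8, where a call needed a log2 fold change of 1 or more in size. The study read 8 of the bladder fibroblast clusters, which intermixed in its map of cells, as 1 major fibroblast type with small differences. Timp3 was the gene of the group that differed, lower in cluster 6 and higher in cluster 7, and Mmp23 was lower in cluster 4. These 3 calls compare with 0.14% of all gene tests over the 9 contrasts. In cluster 6 edgeR called 0.0123% of 16261 genes lower, 2 genes of which Timp3 was 1, in cluster 7 it called 0.109% of 16479 genes higher, and in cluster 4 it called 0.388% of 13664 genes lower.

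Timp3 in cluster 6 was at 33.9 for Acta2GFP, 92.3 for C57BL6, 5.00 for Cspg4dsRED, 208.9 for PdgfraGFP and 150 for PdgfrbGFP. In cluster 7 it was at 726, 1396, 1242, 1562 and 1197 in the same lines. The highest line of cluster 6 was below the lowest line of cluster 7, in which 54.4% of thinned cells had 100 or more Timp3 reads against 1.07% in cluster 6. The log2 fold change against the other clusters was -3.64 in cluster 6 (SE 0.57, n = 5 lines, edgeR adjusted p = 0.0465) and 1.16 in cluster 7 (SE 0.15, n = 5 lines, adjusted p = 0.0165). The cluster 6 call was lost without Acta2GFP (adjusted p = 0.443) and without Cspg4dsRED (0.0657), which had 6 and 3 cells there, and with the fit restricted to lines of at least 10 cells the log2 fold change was -2.56 (adjusted p = 0.135). Without a line term no gene at all was called in cluster 6. The cluster 7 call was lost without C57BL6, Cspg4dsRED, PdgfraGFP or PdgfrbGFP (adjusted p between 0.0637 and 0.103). The dissociation response genes summed to 6519 in cluster 6 and to 3222 in cluster 7, against 5225 in all fibroblast clusters other than 5, and their part in the values of Timp3 was not tested.

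By mean level, Timp3 ran from cluster 10 at 1625 ± 914 (SD, n = 4 lines) and cluster 7 at 1225 ± 313.1 (n = 5) through clusters 1, 3, 2, 9, 8, 11 and 4 to cluster 5 at 121.99 ± 63.6 (n = 4) and cluster 6 at 98.01 ± 83.4 (n = 5). No gap between neighbors in this order exceeded the sum of their SDs. Within clusters 8, 9 and 11 the cells were uneven, with medians of 21, 16 and 8 thinned reads and 10th percentiles of at most 1. In cluster 7 the 10th percentile was 20, and in cluster 6 the 90th was 42. Over the fibroblasts, cluster accounted for 26.8% of the variance of Timp3 on the log scale of thinned reads and plate and line for 5.22%. For the median of 7470 genes these shares were 1.93 and 2.66%. For Mmp2 they were 13.3 and 5.38%, for Timp2 10.6 and 12.6%, for Mmp14 9.24 and 7.54%, and for Mmp23 6.67 and 5.71%, while Timp1, Mmp11, Mmp19, Mmp3 and Timp4 had at most 2.64% between clusters. The median mean of the 7470 genes was 2.60 thinned reads, beside 62.8 for Timp3 and 23.3 to 102.1 for Mmp23, Mmp14, Timp2 and Mmp2. Timp1, Mmp11, Mmp19, Mmp3 and Timp4 had means of at most 3.95. Counting noise takes more of the variance where reads are few, and the shares were not compared at equal read count. As the clusters were made from these values, the shares are descriptions.

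Mmp23 in cluster 4 was called from 2 lines, Cspg4dsRED with 17 cells and PdgfrbGFP with 4, and had a mean of 75.6 ± 105.4 (SD). Its log2 fold change was -4.20 (SE 1.15, edgeR adjusted p = 0.0403), and the call was lost by DESeq2 (0.198), by limma-voom (0.199) and under 3 other settings. Cluster 4 had the fewest genes detected of the 11 clusters, at a median of 2405, with a median of 110330 reads and of 1.92% for spike-ins. Its dissociation response genes summed to 9210 and its fibroblast markers to 7786, against 5225 and 12388 in the fibroblast clusters other than 5, and the part of these in the value of Mmp23 was not tested. Among the remaining clusters the mean of Mmp23 ran from 128.96 ± 21 in cluster 11 (n = 3 lines) to 283.1 ± 29.04 in cluster 9 (n = 2 lines). Mmp2, Timp2, Mmp14, Timp1, Mmp3, Mmp11 and Mmp19 were not called in any of the 9 contrasts. Nor was Timp4, which passed the filter on low counts only in those of clusters 3, 6, 7 and 8. With the median gene of each contrast set to 0, there were 14 calls in these 9 contrasts in place of 3, of which Mmp2 accounted for 4, and the share of all gene tests called was 1.08% in place of 0.14%.

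**Figure D5:**
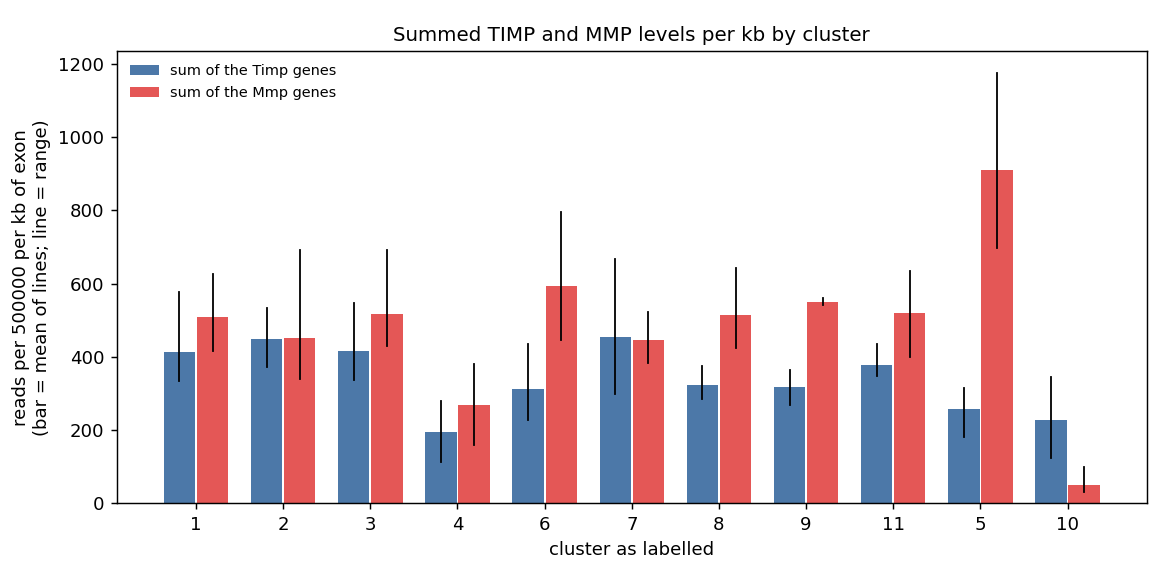
Summed level of the 4 Timp genes and of the 6 Mmp genes per kb of exon (reads per 500000 endogenous reads) in each cluster. Bars are means of lines and vertical lines the range of lines. Cluster 5 has the highest Mmp sum, 910, and cluster 10 the lowest, 50.2.

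Summed per kb of exon, the 6 Mmp genes were at 503 ± 68.3 in the fibroblast clusters other than 5 (SD, n = 5 lines), at 910 ± 213.3 in cluster 5 (n = 4) and at 50.2 ± 32.9 in cluster 10 (n = 4). The 4 Timp genes were at 370.6 ± 83.97, 256.3 ± 56.5 and 228.4 ± 100.9. The ratio of the Timp to the Mmp sum, taken within each line and then averaged, was 0.733 ± 0.0994, 0.293 ± 0.0919 and 5.22 ± 2.67, with lines of cluster 10 between 3.19 and 8.99 and lines of cluster 5 between 0.185 and 0.404. Among the other fibroblast clusters the mean ratio ran from 0.522 ± 0.0251 in cluster 6 to 1.04 ± 0.191 in cluster 2. These are ratios of RNA per kb, and neither protein nor protease activity was measured. Timp3 alone made up 199.6 of the Timp sum in cluster 10, and Mmp2 alone 708.6 of the Mmp sum in cluster 5. The sums and ratios of those clusters therefore largely restate the values of these single genes.

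Several of the genes overlap others, which may affect how reads were assigned, and reads were not recounted without the overlaps. Timp3 (GRCm38 chromosome 10, 86300372 to 86349506, plus strand) lies within Syn3, which is transcribed from the opposite strand, and the exons of the 2 genes share 1733 bases in the GENCODE M21 annotation. Smart-seq2 does not record strand. The table listed 26.9 Syn3 reads for each 100 Timp3 reads overall and between 25.6 and 41.5 in single clusters, and the thinned counts of both were correlated across fibroblasts at r of 0.81 to 0.93 in each of 7 groups of plate and line. Mmp19 shares 789 exon bases with Tmem198b on the other strand, at 93.7 Tmem198b reads for each 100 Mmp19 reads over all cells, 92.7 in the fibroblast clusters, 35.6 in cluster 5 and 269.2 in cluster 10, with r of 0.44 to 0.77. Mmp11 shares exon bases with Chchd10 on the other strand, at 24.6 Chchd10 reads for each 100 Mmp11 reads in the fibroblast clusters, 79.6 in cluster 5 and 55.8 in cluster 10. Reads of either gene in these pairs cannot be told apart where exons overlap.

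Mmp3 and Timp4 were rare. Of 4085 Mmp3 reads 1 cell held 35.3% and 10 cells held 78.7%, and cluster 8 held 60.8%. On 1 plate of PdgfrbGFP 74 of 365 cells had a read of Mmp3, 10 of them with at least 10 reads, and on the other plates of that line 10 and 2 cells had one. No PdgfraGFP cell had a read, at a median of 120376 reads per cell, which allows up to 2.04% of such cells to hold a read and sets no limit on the cells that express the gene. The cluster 8 mean of 15.3 ± 25.2 (SD, n = 5 lines) had an SD above the mean.

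Reporter lines were compared within the fibroblast clusters other than 5 as a description, since each line had its own sorting gate and lines shared few plates. Lines also differed in their mix of clusters, which these levels do not separate. Over 7 groups of plate and line with at least 10 cells, the ratio of the highest to the lowest level was 4.08 for Timp1, 2.44 for Mmp14, 2.30 for Mmp19, 2.26 for Mmp11, 2.17 for Mmp2, 2.13 for Timp3, 2.10 for Timp2 and 1.32 for Mmp23. Among the 3 plates of PdgfrbGFP alone it was 2.88 for Timp1, 2.00 for Timp3, 1.64 for Timp2, 1.61 for Mmp11, 1.58 for Mmp14, 1.26 for Mmp2, 1.20 for Mmp19 and 1.10 for Mmp23. Plates of a single line thus spanned a large part of the range of Timp1 and Timp3, and a smaller part of that of Mmp2 and Mmp19. The highest Mmp2, Timp1, Timp2 and Mmp19 levels were those of PdgfraGFP, and the highest Mmp14 level, 663, was that of Cspg4dsRED on the plate that held most of its cells. Within clusters 2, 3, 6 and 7, but not 8, Mmp2 and Timp2 were highest in PdgfraGFP. Mmp19 was highest in it within clusters 2, 7 and 8 and lowest within clusters 3 and 6. In clusters 7 and 8 Mmp14 was highest in Cspg4dsRED. Urothelial markers summed to 46.1 in these PdgfraGFP fibroblasts and to 0.158 to 4.94 in the other groups. The median mitochondrial share was 2.20% in PdgfraGFP cells, and up to 1.35% on other plates. The part of either was not tested.

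Across single fibroblasts the correlations between the genes were low. Counting noise lowers r where reads are few, and no gene pairs of like level were taken for reference. These r therefore do not show that the genes vary independently. Median Pearson r of thinned log2 counts over the 7 groups of plate and line was 0.13 for Timp2 with Mmp14, 0.13 for Timp1 with Timp3, 0.12 for Mmp2 with Mmp14, 0.11 for Timp2 with Timp3 and 0.050 for Timp2 with Mmp2. Timp3 was inversely correlated with the summed dissociation response genes in each group, with r between -0.42 and -0.22, and Syn3 with r between -0.36 and -0.19. Thinned Timp3 had a median r of 0.30 with the number of genes detected per cell and of 0.082 with the endogenous reads of a cell. The part of either in the r with the dissociation response genes was not tested.

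The genes most like each member were taken by Pearson r of log2 levels over 43 groups of cluster and line, among 9775 genes. Mmp2 was nearest to Podn and Col1a1 (r = 0.94 for both), Timp2 to Heg1 (0.88) and Scpep1os (0.85), Mmp14 to Oaf (0.88) and Nbl1 (0.85), and Mmp23 to Lama2 and Hsd11b1 (0.84 for both). Timp3 was nearest to Syn3 (0.97) and then Iqgap1 (0.67). Timp1 was nearest to Tmed3 (0.78) and Mmp2 (0.76), Mmp11 to Ncln (0.82) and Carhsp1 (0.73), Mmp19 to B3gnt9 (0.77) and Glrx3 (0.76), Mmp3 to Ackr4 (0.69) and Dpp4 (0.65), and Timp4 to Kcna5 (0.91) and Ephx3 (0.90). The groups share lines and plates, and cluster 10 sets much of the range for genes that are low there.

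Other genes of the pathway were taken from lists of further MMPs, of activators, inhibitors and uptake receptors, and of proteases that TIMP3 inhibits. Of 17 further Mmp genes, 5 were tested in cluster 10 against fibroblasts, and Mmp16, a membrane-bound MMP, was called lower at 0.192 ± 0.289 against 15.7 ± 7.41 (log2 fold change -6.66, edgeR adjusted p = 0.0263). Of 16 activators, inhibitors and uptake receptors, 14 were tested and 5 were called lower, among them Thbs2, which binds MMP2 for uptake, at 48.9 ± 49.4 against 845 ± 197.8, and the protease Plat at 16.96 ± 14.9 against 186.5 ± 41.02. Pcsk5, a proprotein convertase, was at 2.06 ± 2.41 against 91.2 ± 26.7, and the uptake receptor Lrp1 and the hyaluronan receptor Cd44 were also called lower. Of all genes tested 4.02% were called lower in this comparison. The medians of these lists were -0.65 and -2.35, beside -0.93 for all genes.

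Of 8 ADAM and ADAMTS genes, all 8 were tested in cluster 10. Adamts1, which cuts the proteoglycan versican, was called higher at 584 ± 406 against 109.3 ± 57.8 (log2 fold change 2.03, SE 0.41, edgeR adjusted p = 0.00378), and Adamts2, the procollagen protease, and Adam12 were called lower, with a list median of -0.97, where 2.17% of all genes were called higher and 4.02% lower. In cluster 5, Serpine2, an inhibitor of serine proteases, was called lower at 5.86 ± 6.86 against 110 ± 32.8 (log2 fold change -4.98, SE 0.81, edgeR adjusted p = 0.0120), and no other gene of the 3 lists was called among 27 tested, against 0.762% of all genes called in either direction.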

How the data were processed

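The authors deposited a single table of whole-number read counts, not normalized, with 46517 rows for genes, 92 for ERCC spike-ins and a column for each of the 1479 cells. Cells numbered 810 for PdgfrbGFP, 203 for Cspg4dsRED, 190 for C57BL6, 147 for PdgfraGFP and 129 for Acta2GFP, and 125 for cluster 10. Per the study's methods and the submitters' processing notes, reads were demultiplexed with bcl2fastq, trimmed, mapped to GRCm38 with TopHat2 and counted with featureCounts after duplicate removal. No strand setting is given in the sources used here. Cells were grouped by the cluster and line in their labels, with 0 columns left out.

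Counts were summed per line and class, with at least 3 cells in both, and tested with edgeR 4.0.16 in R 4.3.3 (TMM, filterByExpr, quasi-likelihood, the line as a term), after a test on simulated data. Each SE beside an edgeR fold was derived from the test, as the size of the log2 fold change divided by the square root of F. Alternatives used DESeq2 1.42.0, limma 3.58.1, other scalings, filters and units, and each line left out. Shares used cells thinned to 50000 endogenous reads, which left out 6 cells, with exact Clopper-Pearson intervals and a limit of 3 counts for a count of 0. Depth ran from 50276 to 1446059 reads per cell. Correlations, plots and tables used Python 3.11.15, numpy 2.4.6, scipy 1.17.1, pandas 2.3.3 and matplotlib 3.10.9.

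All 10 genes are named in every comparison. Of the other pathway lists, called genes are named, at most 8 for each of clusters 10 and 5, and for likeness the 2 genes of highest r with a mean level of at least 5. The members and lists were chosen with earlier results of these data known. Gene models are GENCODE M21, which matched 46005 gene rows, and promoters are RefSeq.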

Additional observations from a re-analysis of the deposited data

Results flagged for a closer look

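Among 60 combinations of the 10 genes with clusters 5, 6, 7 and 10, all fibroblast clusters and the fibroblast clusters other than 5, 10 had a line far from the others by Dixon's criterion, which flags about 1 in 20 by chance. In cluster 6, Timp1 was at 190 in Cspg4dsRED (3 cells) with the next line at 41.8, Timp2 was at 1270 in PdgfraGFP (30 cells) with the next at 853, and Mmp3 was at 3.84 in PdgfrbGFP with the next at 0.526. In cluster 7, Mmp3 was at 2.99 in PdgfrbGFP with the next at 0.163, Mmp11 at 92.3 in Cspg4dsRED (11 cells) with the next at 40.8, and Timp4 at 0.571 in C57BL6 with the next at 0.0372. Timp4 in cluster 5 was at 0.165 in C57BL6 (15 cells) with the next at 0.0185.

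Mmp14 in the fibroblast clusters other than 5 was at 635 in Cspg4dsRED, with the next line, Acta2GFP, at 397, and in all fibroblast clusters it was at 634 in Cspg4dsRED. Mmp23 in cluster 10 was at 216.7 in C57BL6, from 3 cells, with the next line at 15.5. Mmp11 in cluster 10 was at 193.2% of the fibroblast level in Cspg4dsRED and at 121.9% in Acta2GFP, but at 23.3% in PdgfrbGFP and at 0% in the 3 C57BL6 cells, so the lines moved in opposite directions, and the difference between them was not tested.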

How the results depend on the processing

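Members called in cluster 10 numbered 5 (6.2% of all genes tested were called), and 8 with DESeq2 (18.6% of all genes), 4 to 6 with a line left out, and 4 to 7 under the other settings, under all of which 2.88 to 15.9% of all genes were called. Mmp2, Mmp14 and Timp2 were called under all 14 of them, of which leaving out C57BL6 and at least 10 cells per line were 1 fit. In cluster 5 the count was 1, Timp3, in every setting, 1 to 1 with a line left out, with 0.762% of all genes called, 8.68% with DESeq2 and 0.559 to 3% otherwise. Over the 9 single fibroblast cluster contrasts the 3 calls (0.14% of all gene tests) became 14 with the median gene at 0 (1.08%), 7 with ERCC scaling (2.91%), 1 with at least 10 cells per line (5 contrasts, 0.0858%) and 1 without a line term (0.318%), and 0 to 2 with a line left out, 0 without Cspg4dsRED. The cause was not tested. Of the recomputed log2 fold changes 5 distinct ones reversed, none of them called: Mmp11 in cluster 10 without a line term (0.016), Mmp19 in cluster 5 with sums per plate and line (0.052), and Mmp23 in cluster 5 with the median gene at 0 (0.56), with limma-voom (0.058) and with at least 10 cells per line, which is the same fit as without Cspg4dsRED (0.081, in a range from -0.42 without PdgfraGFP). The settings without C57BL6 for ratios and percentages of levels were added after seeing the data. Sums per plate and line gave 8 of the 9 contrasts, and contrasts with 2 lines could not lose one. Classes were compared within lines and, with sums per plate and line, within plates (7 members called in cluster 10, 1 in cluster 5). By replicate number, no paired analysis was possible because the labels give none. The few cells of some lines and reads without molecular identifiers or strand limit the small differences.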
